A study of Mus musculus with 24 samples.

Results

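The genes of the cytosolic ribosome were followed in mouse lung after diesel exhaust and an allergen. A gene was taken as a member when a probe set, the group of short probes that reads a transcript, named it alone and its symbol had the form of a large (Rpl) or small (Rps) subunit protein, or was Rplp0, Rplp1, Rplp2 or Rpsa. Where several probe sets named a gene, the one with the highest mean signal spoke for it. The rule found 100 probe sets of 48 genes, 26 of the large and 22 of the small subunit, among 12393 genes with a probe set of their own. Of these 48, 45 passed the filter on dim signals and were tested, among 8315 genes in all. The member just above the filter was Rpl12 at a mean log2 signal of 7.24, and the highest below it was Rpl14 at 6.28, with the paralogs Rpl3l at 4.68 and Rpl39l at 3.53. A further 27 ribosomal protein genes, Rplp1 among them, were named only by probe sets that also named other genes and were not counted as members.

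Mice breathed filtered air or diesel exhaust (DE) at 500 or 2000 ug/m3, 4 hours on each of 5 days, and received saline or 100 ug of ovalbumin (OVA), an egg protein used as an allergen, on 3 days. The 6 groups, air, DE 500 and DE 2000 with saline and the same 3 with OVA, held 4 arrays apiece, and that small number bounds how precise any comparison can be. The labels give no strain, sex or age and do not state whether the 4 replicates are separate animals, so the p-values measure the spread between these arrays, which may be technical. The comparisons asked what exhaust did in each arm, what OVA did at each exposure, and whether the effects of exhaust and OVA depended on each other.

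Each cytosolic ribosome carries a set of small, mostly basic proteins on its RNA. They are built into a large subunit, where peptide bonds form, and a small subunit, which reads the message. Their messenger RNAs are among the most abundant in nearly every cell and are made in step, and their translation is controlled through a run of pyrimidines (C or T) at the start of the message, the TOP motif, in response to growth signals. Many of them also have processed pseudogenes and close paralogs, which makes array probes for them less specific.

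The start sites of the 5 members that passed the test below, and of Rpl35 and the stalk gene Rplp2, are shown because the runs of C and T around them differ widely in length. Each line gives 50 bases of the sense strand, 30 before and 20 after the annotated start in RefSeq (build GRCm38.p6), 5' to 3', and the capitals mark the longest run of C and T anywhere in that window, which need not be a TOP motif.
Rpsa, chr9:120127736-120127785, plus strand: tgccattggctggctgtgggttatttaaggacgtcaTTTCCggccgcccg
Rpl22l1, chr3:28805478-28805527, plus strand: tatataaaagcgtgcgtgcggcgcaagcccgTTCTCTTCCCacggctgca
Rps9, chr7:3704011-3704060, plus strand: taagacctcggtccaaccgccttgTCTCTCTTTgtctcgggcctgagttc
Rpl7a, chr2:26910777-26910826, plus strand: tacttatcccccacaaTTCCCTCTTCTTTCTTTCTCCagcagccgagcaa
Rpl12, chr2:32961682-32961731, plus strand: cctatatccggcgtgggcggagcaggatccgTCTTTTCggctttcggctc
Rpl35, chr2:39005112-39005161, minus strand: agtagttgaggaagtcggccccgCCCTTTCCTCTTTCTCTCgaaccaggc
Rplp2, chr7:141447621-141447670, plus strand: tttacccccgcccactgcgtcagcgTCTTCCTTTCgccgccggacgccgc

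The longest run spanned 21 bases in Rpl7a, 18 in Rpl35, 10 in Rplp2 and Rpl22l1, 9 in Rps9, 7 in Rpl12 and 5 in Rpsa, the last at position 7, counted from 1 at the annotated start. A run of at least 8 C or T on the sense strand of this window was present at 23 of 50 annotated starts of 42 members (46.0%), against 6642 of 32851 starts of all genes in the table (20.2%). The run length is a description of these letters and was not tied to any array value.

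The arrays differed in ways that bear on these genes. All were scaled by the authors to a trimmed mean between 500.1 and 500.2 that leaves out the top and bottom 2% of probe sets, and array medians still ranged from 182 to 243. The log2 3'/5' ratio, the mean over the Gapdh and actin control probe sets, which rises when transcripts are degraded or incompletely copied, was 1.74 ± 0.83 (SD, n = 4), 2.15 ± 2.24 and 1.63 ± 0.31 in the saline groups at air, DE 500 and DE 2000, and 0.08 ± 0.10, 0.03 ± 0.07 and 0.51 ± 1.01 in the OVA groups. DE 500 plus saline held replicates at 4.38 and 3.77 (1 and 4) and at 0.33 and 0.10 (2 and 3), and DE 2000 plus OVA owed its spread to replicate 4 at 2.02. The signal of the control for B1, a short repeat found in many unspliced transcripts, lay at 12.88, 12.97 and 13.10 in the saline groups and at 11.68, 11.64 and 11.33 in the OVA groups. The summed lung markers (8 of 9 above the filter, Sftpc at 14.82; the macrophage receptor Marco below it at 4.54) lay between 16.49 and 17.10 in all groups.

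Ribosomal protein probe sets were among the brightest on every array. The mean log2 signal exceeded 12 for 32 of the 45 tested members, lay between 10 and 12 for 5 and was under 10 for 8. On each array 31 or 32 of the 45 lay in the top 2% of all probe sets, the part left out of the authors' scaling mean. The highest signals were those of Rpl41, the smallest ribosomal protein (14.46), Rps29 (14.42) and Rps28 (14.00). The lowest tested were Rpl12, at the base of the stalk (7.24), Rps4l, a paralog of Rps4x (8.27), and Rps6, the small subunit protein phosphorylated by S6 kinase (8.28). Signals of different probe sets are not levels that can be set against each other, and 10 members, 6 of the 8 under 10 among them, had a brighter probe set that names several genes.

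The median log2 signal of the 45 members was 13.26, 13.21, 13.34 and 13.24 on the air plus saline arrays and 13.28, 13.42, 13.27 and 13.18 on the DE 2000 plus saline arrays. It was 13.34, 12.88, 12.78 and 13.27 with DE 500 plus saline, where the low replicates 2 and 3 were also those with the low 3'/5' ratio. With OVA it was 12.93, 13.13, 12.87 and 12.88 in air, 13.11, 12.96, 12.86 and 12.82 at DE 500, and 12.97, 13.16, 13.16 and 13.33 at DE 2000. The air plus OVA arrays all lay below the air plus saline arrays, whereas the groups at DE 500 and at DE 2000 overlapped between saline and OVA. The highest of the 12 OVA arrays, DE 2000 plus OVA replicate 4, was the OVA array with the high 3'/5' ratio and also had the lowest array median, 182. Quantile normalization, which gives every array the same distribution of signals, brought the group means from between 12.94 and 13.29 to between 13.05 and 13.20.

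**Figure D1:**
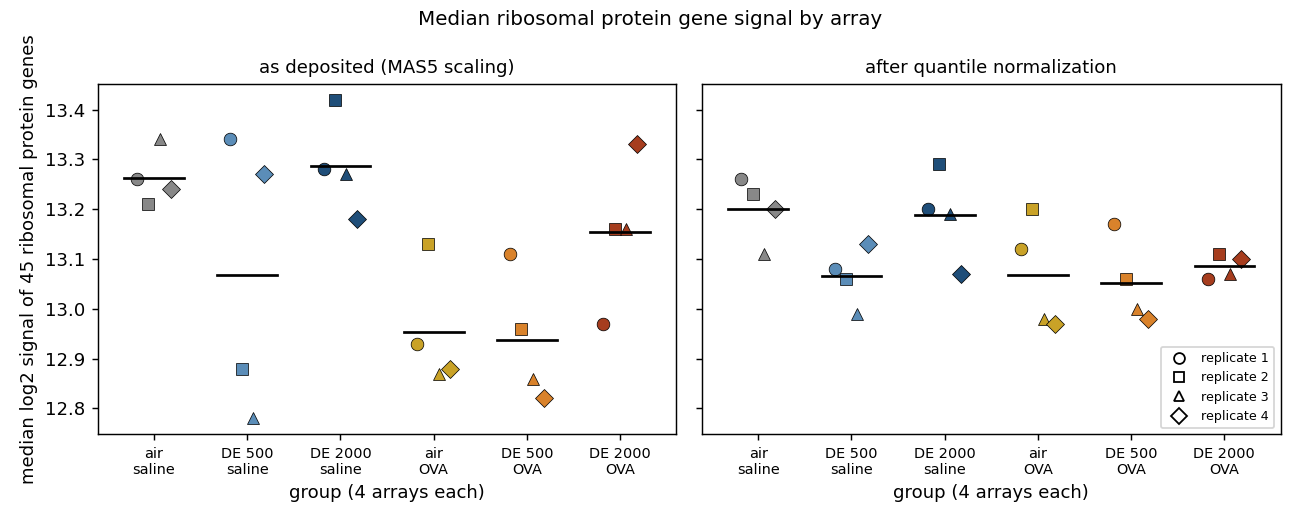
Median log2 signal of the 45 tested ribosomal protein genes on each array, as deposited (left) and after quantile normalization (right), for the 6 groups on the horizontal axis; points are arrays, shaped by replicate number, and lines are group means of 4 arrays. The deposited medians run from 12.78 to 13.42, with DE 500 plus saline split into a high and a low pair, and the group means move closer together after quantile normalization.

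Members moved together from array to array within a group. After each group's mean was removed, the median correlation over the 990 pairs of members was 0.40 across the 24 arrays, and 85.6% of pairs were above 0. Among the 32 members above log2 12 it was 0.59, with 95.4% of 496 pairs above 0. After quantile normalization these medians were 0.09 and 0.08. The arrays' shared scale and RNA quality enter every pair, so these figures describe the arrays as well as the genes. The median SD of a member within a group was 0.12 to 0.16 except in DE 500 plus saline (0.32) and DE 2000 plus OVA (0.21). Over all tested probe sets the median SD was also widest in these groups, at 0.30 in each, and 0.19 to 0.23 in the others.

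No ribosomal protein gene passed the test for exhaust in saline-treated mice. At DE 2000, 0 of 45 passed the test (adjusted p under 0.05 in limma) against 0.147% of all 13575 tested probe sets. An unadjusted p under 0.05 was given to 1 member and to 5.94% of all probe sets. Values lay above 0 for 32 of 45, with a median of 0.07 on the log2 scale against -0.01 over all probe sets. Rpl12 was 7.13, 7.10, 6.91 and 7.12 in air and 7.64, 7.45, 7.55 and 7.86 at DE 2000, a difference of 0.56 ± 0.21 (SE; adjusted p = 0.55). These groups did not overlap, and how often that holds over all probe sets was not counted. Rpl12 was the member with the largest value. Rps4l (0.22 ± 0.38) and Rps20 (0.19 ± 0.16) came next, and the lowest values were those of Rpl7l1 (-0.20 ± 0.20), Rpl27a (-0.16 ± 0.30) and Rpl7 (-0.08 ± 0.11). Summed neutrophil markers lay between 12.27 and 13.43 with DE 2000 plus saline and between 11.30 and 11.96 with air plus saline, without a called member beside them. The sum runs over 6 markers on the array, of which 4 were tested and 0 passed in limma (smallest adjusted p = 0.232).

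At DE 500 with saline, 0 of 45 passed against 0.00737% of probe sets. An unadjusted p under 0.05 was given to 2 members and to 7.90% of all probe sets. Values were above 0 for 16 of 45, with a median of -0.03. Rps6 (0.41 ± 0.22), Rpl12 (0.34 ± 0.21) and Rps20 (0.23 ± 0.16) had the highest values. Rps4l (-0.39 ± 0.38), Rps19, which is mutated in Diamond-Blackfan anaemia (-0.31 ± 0.14, adjusted p = 0.559), and Rplp0, the core of the stalk that binds elongation factors (-0.27 ± 0.12, adjusted p = 0.558), had the lowest.

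In OVA-treated mice, DE 2000 came with values above 0 for 42 of 45 members, with a median of 0.24, while 43.8% of all probe sets lay above 0, with a median of -0.04. None passed the test against 0.0221% of all probe sets, with a smallest adjusted p of 0.517. Unadjusted p was under 0.05 for 11 of 45 members and for 8.13% of all probe sets. All 32 members above log2 12 lay above 0. The highest were Rpsa, a small subunit protein also known as a laminin receptor (0.51 ± 0.26), Rpl35, at the exit tunnel (0.45 ± 0.26), and Rpl7l1 (0.38 ± 0.20). Rpl12 (-0.32 ± 0.21), Rpl11, which can bind Mdm2 (-0.12 ± 0.11), and Rpl37 (-0.10 ± 0.19) were the only members below 0. Rpl35 was 12.99, 13.48, 12.69 and 12.91 in air plus OVA and 12.87, 13.38, 13.60 and 14.02 in DE 2000 plus OVA. Those groups overlapped, and replicates 3 and 4 of the exhaust group stood highest. The other tested probe sets of Rpl35 gave smaller differences, from 0.04 to 0.27.

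The shift was smaller after quantile normalization. The median was then 0.06 in place of 0.24, values lay above 0 for 30 of 45 in place of 42, and 1 member in place of 11 had an unadjusted p under 0.05. Leaving out DE 2000 plus OVA replicate 4 gave a median of 0.21, and a fit with the 3'/5' covariate gave 0.20. With the B1 signal as a covariate, a fit chosen with the values in view, the median was 0.32. That fit called 7.17% of all 13575 probe sets, 388 rises and 586 falls, and of the 45 members 12 rose and 0 fell. These 12 were Rpsa (0.72, adjusted p = 0.0156), Rpl35 (0.66), Rps28, Rpl38, Rps29, Rps3, Rps26, Rpl6, Rpl8, Rps20, Rps4x and Rpl19. The B1 signal lay at 11.33 ± 0.74 in DE 2000 plus OVA and 11.68 ± 0.27 in air plus OVA, and its part in the result was not tested further.

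At DE 500 with OVA, 0 of 45 passed against 0% of all probe sets, 0 had an unadjusted p under 0.05 against 0.921% of all, and values were above 0 for 19 of 45 with a median of -0.01. Rps6 (0.28 ± 0.22) and Rps4l (-0.26 ± 0.38) had the highest and lowest values. The interaction, the difference between the exhaust effect in OVA and in saline, was called for 0 of 45 at DE 2000 and 0 of 45 at DE 500, against 0% of all probe sets in both. Unadjusted p fell under 0.05 for 2 and 0 members, against 6.11% and 3.09% of all probe sets. At DE 2000 its median was 0.19, with 36 of 45 above 0, and 0.04 after quantile normalization. Rpl12 had the lowest interaction at DE 2000 (-0.88 ± 0.29, adjusted p = 0.552) and Rpl7l1 the highest (0.57 ± 0.28, adjusted p = 0.826).

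**Figure D2:**
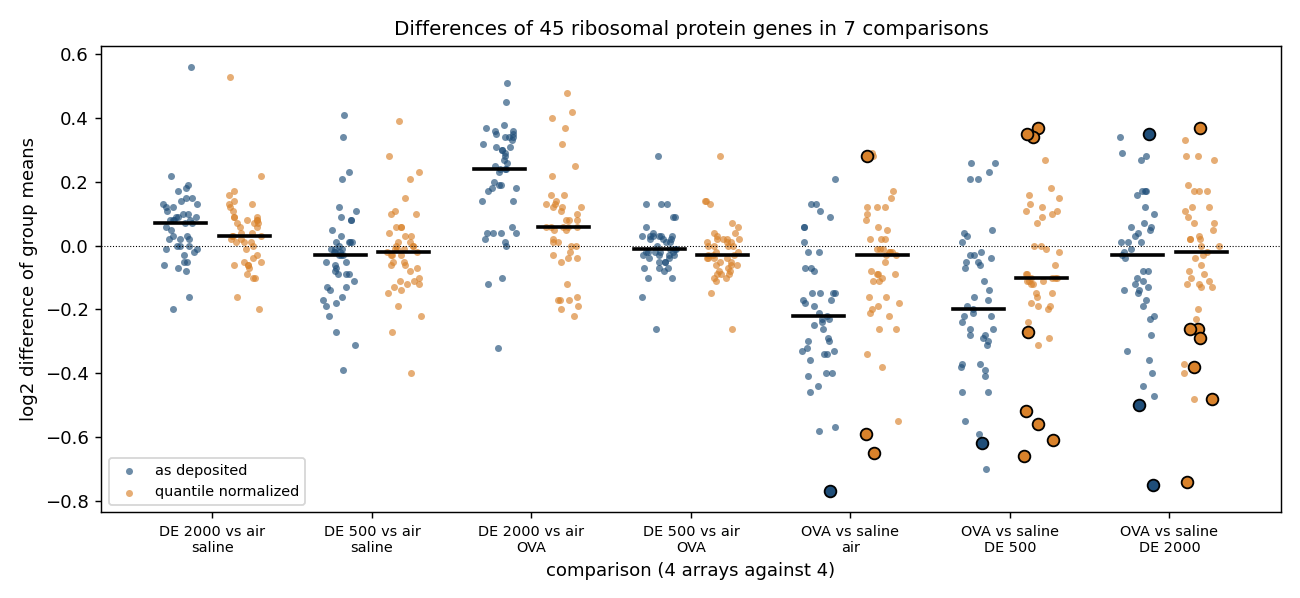
Log2 differences of group means (vertical axis, 4 arrays against 4) of the 45 tested ribosomal protein genes in 7 comparisons, as deposited (blue) and after quantile normalization (orange); each point is a gene, the bar is the median, and large outlined points have an adjusted p under 0.05 in limma. The DE 2000 comparison in OVA has a median of 0.24 as deposited and 0.06 after quantile normalization, and outlined points occur in the 3 comparisons of OVA with saline.

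As deposited, the share of ribosomal protein genes called for OVA against saline was below that of the array, and this depended on the processing. In air 1 of 45 fell and 0 rose against 14.8% of all probe sets called, at DE 500 1 fell and 0 rose against 12.5%, and at DE 2000 2 fell and 1 rose against 18.1%. The medians were -0.22 in air (8 of 45 above 0), -0.20 at DE 500 (9 of 45) and -0.03 at DE 2000 (20 of 45), while those of all probe sets were -0.01, 0.01 and -0.03. Large and small subunit genes had medians of -0.17 and -0.24 in air, -0.14 and -0.23 at DE 500, and 0.01 and -0.06 at DE 2000. Unadjusted p was under 0.05 for 12, 15 and 7 members, against 32.5%, 31.8% and 32% of all probe sets. At DE 500 the quantile normalized values called 8 of 45 (17.8%) against 14.3%. After quantile normalization the medians were -0.03, -0.10 and -0.02, and in a fit with the 3'/5' covariate they were -0.02, 0.09 and 0.08. That fit called 0, 0 and 4 of 45 against 1.77%, 1.16% and 15.7% of all probe sets. The ratio differed between the OVA and saline arrays as given above, and OVA and RNA quality cannot be fully told apart. In whole lung, fewer cells of a type and less RNA per cell cannot be told apart either. At DE 2000, 2 of 4 tested neutrophil markers also fell (median -0.65, 0 of 4 above 0), while 1 of 8 lung markers fell in air (Ager of alveolar type I cells, -0.46, adjusted p = 0.0372) and 1 rose at DE 2000 (the surfactant protein Sftpb, 0.36, adjusted p = 0.0412). With the 3'/5' ratio in the fit the adjusted p of Ager and Sftpb was 0.351 and 0.082. In that fit the neutrophil markers S100a9 and S100a8, which had fallen at DE 2000, had 0.0398 and 0.0592. Of the other lists, 0 of 6 B and T cell markers and 0 of 4 heart muscle markers passed in any comparison of OVA with saline, and the part of these cells in the members' values was not tested.

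Rpsa fell in air. Its log2 signal was 13.73, 13.37, 14.07 and 13.40 with saline and 12.89, 13.12, 12.70 and 12.77 with OVA, with no overlap. The difference was -0.77 ± 0.26, or 0.586-fold (adjusted p = 0.0463), and -0.59 after quantile normalization (adjusted p = 0.0257). At DE 500 it was -0.70 ± 0.26 (adjusted p = 0.0713), with saline arrays at 14.41, 12.84, 12.93 and 14.00, high where the 3'/5' ratio was high. At DE 2000 it was -0.44 ± 0.26 (adjusted p = 0.25). The call in air did not hold when the 3'/5' ratio (-0.21, adjusted p = 0.458) or the B1 signal (-0.06) entered the fit, nor with scaling to the median, without a filter or with the replicate number as a block (adjusted p = 0.0555). It stood in 9 of 24 fits that each left out 1 array.

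Rpl22l1, a paralog of the large subunit protein Rpl22, fell at DE 500. It was 11.87, 11.19, 11.01 and 11.79 with saline and 11.07, 10.88, 10.45 and 10.99 with OVA, and the groups overlapped. The difference was -0.62 ± 0.19, or 0.653-fold (adjusted p = 0.0396), against -0.30 ± 0.19 in air and -0.19 ± 0.19 at DE 2000. The saline replicates 1 and 4 that stood high carried the highest 3'/5' ratios. The call was lost when that ratio entered the fit (-0.25, adjusted p = 0.656), without a filter, with only the compared groups in the fit (adjusted p = 0.147), and without either of these replicates or any DE 500 plus OVA array. Rpl22 itself gave -0.14 ± 0.14 at DE 500.

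Rpl7a, a large subunit protein, rose at DE 2000. It was 13.42, 13.42, 13.41 and 13.46 with saline and 13.57, 13.89, 13.73 and 13.91 with OVA, with no overlap. The difference was 0.35 ± 0.09, or 1.27-fold (adjusted p = 0.00822). It was 0.37 with quantile normalization and with the 3'/5' covariate (adjusted p = 0.00697 and 0.00354). At DE 500 it was 0.21 ± 0.09 (adjusted p = 0.0985) and in air 0.06 ± 0.09. These became 0.35 (adjusted p = 0.0154) and 0.28 (adjusted p = 0.0378) after quantile normalization. The call at DE 2000 stood in all 24 fits that left out an array, and was lost with median scaling (adjusted p = 0.0643) and with only the compared groups in the fit (adjusted p = 0.0544).

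Rps9, a protein of the small subunit, fell at DE 2000. It was 13.20, 13.21, 13.12 and 13.18 with saline and 12.61, 13.01, 12.65 and 12.43 with OVA, with no overlap. The difference was -0.50 ± 0.14, or 0.706-fold (adjusted p = 0.017), and it was -0.48 after quantile normalization and -0.38 with the 3'/5' covariate (adjusted p = 0.0369). In air it was -0.36 ± 0.14 (adjusted p = 0.0829) and at DE 500 -0.22 ± 0.14. The call stood in all 24 fits without an array and was lost with the B1 covariate (-0.23, adjusted p = 0.501) and with median scaling (adjusted p = 0.052). A second, dimmer probe set of Rps9 (mean 7.85) gave -0.08 ± 0.27 at DE 2000.

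Rpl12 fell at DE 2000 as well, on a probe set close to the filter. It was 7.64, 7.45, 7.55 and 7.86 with saline and 7.10, 6.51, 7.41 and 6.50 with OVA, with no overlap. The difference was -0.75 ± 0.21, or 0.596-fold (adjusted p = 0.0148), -0.74 after quantile normalization and -0.80 with the 3'/5' covariate. In air it was 0.13 ± 0.21 and at DE 500 -0.11 ± 0.21. The call was lost without DE 2000 plus OVA replicate 2 (-0.62, adjusted p = 0.0579), without DE 2000 plus saline replicate 4 (-0.67, adjusted p = 0.0514) and with only the compared groups in the fit (adjusted p = 0.0947).

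**Figure D3:**
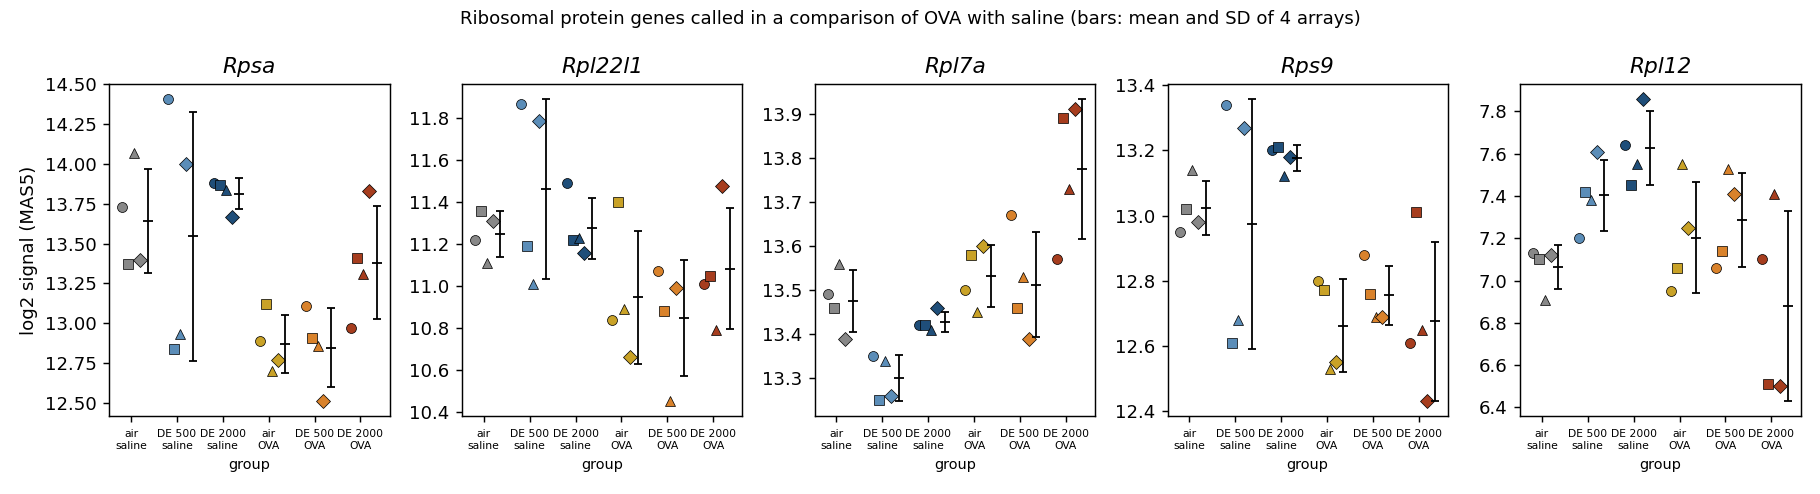
Log2 signal by array of the 5 ribosomal protein genes called in a comparison of OVA with saline, for the 6 groups on the horizontal axis; points are arrays shaped by replicate number, bars are mean and SD of 4 arrays, and each panel has its own vertical scale. At DE 2000 the OVA arrays of Rpl7a lie above the saline arrays and those of Rps9 and Rpl12 below them, and Rpsa in DE 500 plus saline splits into 14.41 and 14.00 against 12.84 and 12.93.

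More members passed after quantile normalization, in both directions. In air 2 fell and 1 rose against 16.8% of all probe sets. These were Rpsa, Rpl7a and Rps25, which takes part in initiation at internal entry sites (-0.65, adjusted p = 0.0356; -0.57 as deposited, adjusted p = 0.0502). At DE 500, 5 fell and 3 rose against 14.3%. The falls were Rps6 (-0.66, adjusted p = 0.0418), Rps25 (-0.61), Rpl22l1 (-0.56), Rpsa (-0.52) and Rpl37a (-0.27), and the rises were Rpl27 (0.37, adjusted p = 0.041), Rpl7a (0.35) and Rpl4, whose loop lines the exit tunnel (0.34). The other tested probe sets of Rpl27 went the other way at DE 500 after quantile normalization (-0.28 and -0.26, adjusted p = 0.386 and 0.406). Those of Rpl37a gave -0.15 and 0.59 there (adjusted p = 0.316 and 0.376). At DE 2000, 6 fell and 1 rose against 19.5%. Beside Rpl12, Rps9 and Rpl7a these were Rpl41 (-0.26, adjusted p = 0.0172), Rpl13a (-0.38, adjusted p = 0.0261), Rps24 (-0.26, adjusted p = 0.0482) and Rps10. The comparisons at each exposure use different arrays. Whether the OVA effect on a member differed between air and an exhaust dose is the interaction, which was called for none. A difference of that effect between DE 500 and DE 2000 was not tested.

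**Figure D4:**
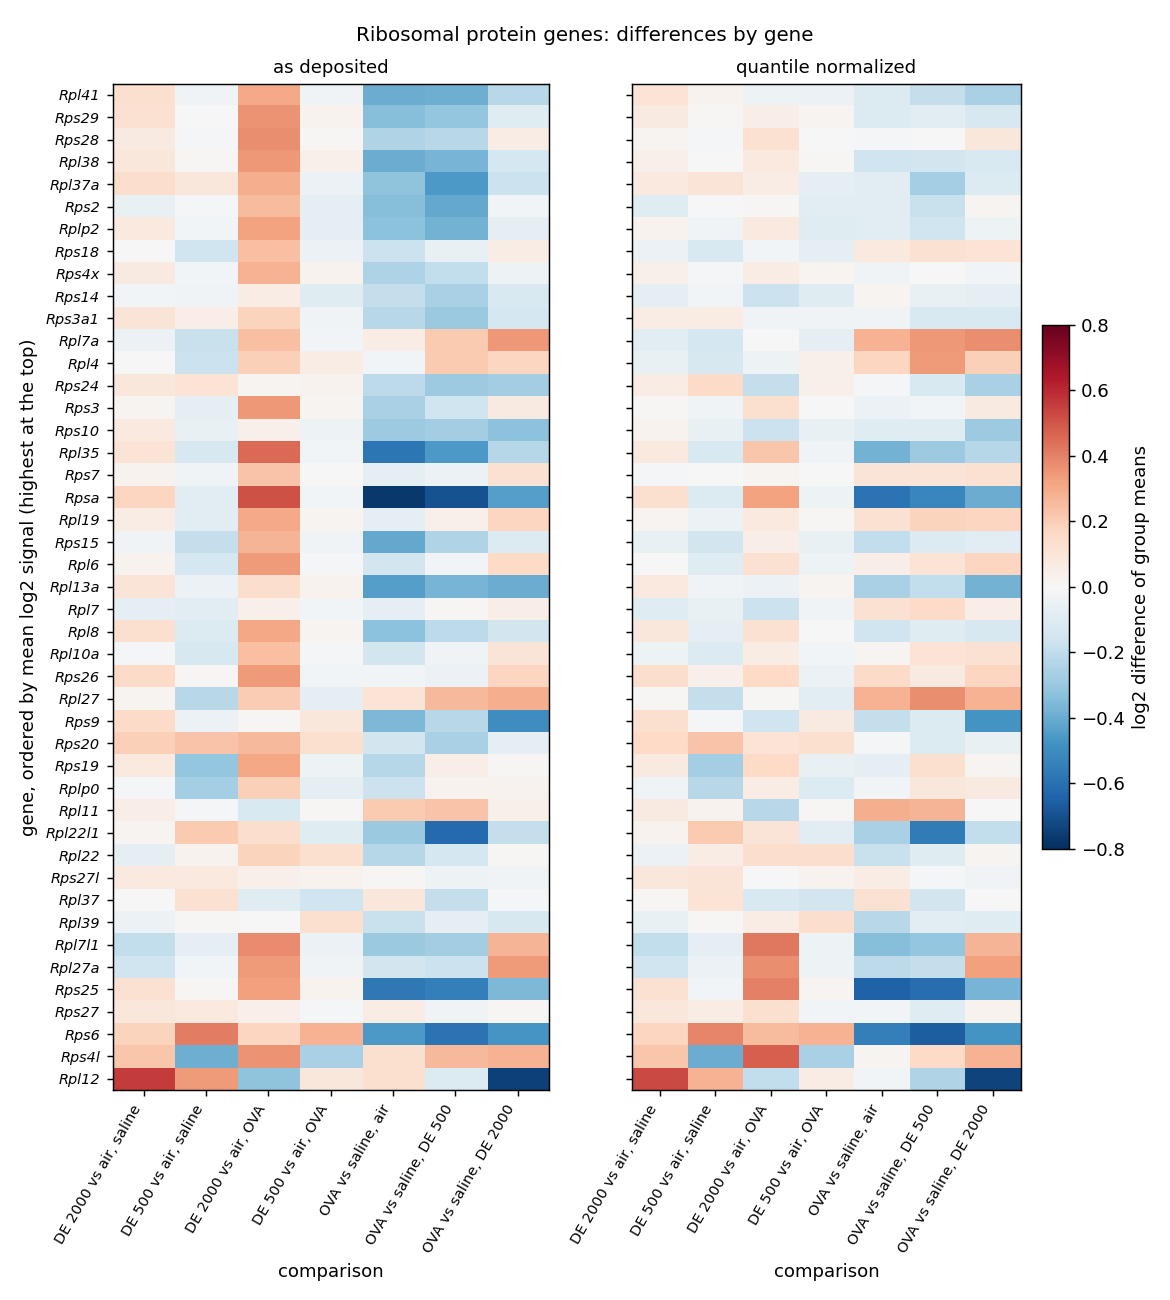
Log2 differences of group means (colour, red above 0 and blue below) of the 45 tested ribosomal protein genes, in rows ordered by mean log2 signal with the highest at the top, in 7 comparisons (columns), as deposited (left) and after quantile normalization (right). As deposited the column for DE 2000 against air in OVA is red for all 32 genes above log2 12, and after quantile normalization 21 of these 32 lie above 0.

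The stalk genes, whose products recruit elongation factors, passed no test. Rplp2 was 13.79, 13.69, 14.16 and 13.62 in air plus saline and 13.37, 13.59, 13.47 and 13.52 in air plus OVA. The groups were separated only by 13.62 against 13.59, in a comparison where 32.5% of all probe sets had an unadjusted p under 0.05 in limma. The difference was -0.33 ± 0.16 (adjusted p = 0.158), and it was -0.09 after quantile normalization. The values at DE 500 and DE 2000 were -0.38 ± 0.16 and -0.08 ± 0.16. Rplp0 gave -0.17 ± 0.12, 0.03 ± 0.12 and 0.03 ± 0.12 in the same order.

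Among the paralogs, Rpl22l1 was the one called through the probe set that spoke for it. Rps27l, which responds to p53, gave 0.01 ± 0.13, -0.04 ± 0.13 and -0.03 ± 0.13 for OVA against saline in air, at DE 500 and at DE 2000, and Rps27 gave 0.06 ± 0.21, -0.03 ± 0.21 and 0.01 ± 0.21. Rps4l gave 0.13 ± 0.38, 0.26 ± 0.38 and 0.28 ± 0.38, on arrays that spread from 6.52 to 9.19, and Rps4x gave -0.25 ± 0.14, -0.20 ± 0.14 and -0.04 ± 0.14. Rpl7l1, linked to ribosome assembly, gave -0.30 ± 0.20, -0.28 ± 0.20 and 0.27 ± 0.20, and Rpl7 gave -0.07 ± 0.11, 0.01 ± 0.11 and 0.05 ± 0.11. Rpl39, in the wall of the exit tunnel, gave -0.18 ± 0.20, -0.07 ± 0.20 and -0.13 ± 0.20.

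Probe sets of a gene did not always give the same answer. Of 19 members with at least 2 tested probe sets, all probe sets shared the sign in 16 for OVA against saline in air, in 14 at DE 500 and in 14 at DE 2000. For exhaust against air they did so in 9 at DE 2000 and 8 at DE 500 with saline, and in 13 and 7 with OVA. For the interactions at DE 2000 and DE 500 it was 10 and 7. A dim probe set of Rpl41 (mean 7.99) fell in air, at DE 500 and at DE 2000, with differences of -0.97, -1.20 and -1.62 (adjusted p = 0.0306, 0.0133 and 0.000634). The probe set that spoke for Rpl41 (14.46) gave -0.40, -0.39 and -0.22 as deposited and was not called. After quantile normalization it was called at DE 2000 (-0.26, adjusted p = 0.0172). A dim probe set of Rps24 (mean 7.40) fell at DE 500 and DE 2000, with differences of -0.74 and -1.16 (adjusted p = 0.0384 and 0.00131), where its brightest (13.47) gave -0.29 and -0.28. The brightest was called at DE 2000 after quantile normalization (-0.26, adjusted p = 0.0482). For Rpl41 and Rps24 the dim and the brightest probe set thus shared the sign and differed in size. The second probe set of Rpl7l1 rose by 0.53 in air and 0.75 at DE 2000 (adjusted p = 0.035 and 0.00315), against -0.30 and 0.27 for the one that spoke. At DE 500 another probe set of Rpl7 rose by 0.40 (adjusted p = 0.0422) and one of Rps29 fell by 0.51 (adjusted p = 0.038), with 0.01 and -0.31 on their brightest. Probes that share sequence with pseudogenes, or that lie at different distances from the 3' end, cannot be told apart here.

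The 88 tested probe sets that name a ribosomal protein gene together with others gave like values. Their medians were -0.20, -0.17 and -0.09 for OVA against saline in air, at DE 500 and at DE 2000, with 1, 1 and 4 of 88 called, against 14.8%, 12.5% and 18.1% of all probe sets. For DE 2000 against air in OVA their median was 0.22, with 83 of 88 above 0 and 0 called, and 0.05 after quantile normalization. Fau, a ribosomal protein gene whose symbol does not follow the rule, gave -0.35 ± 0.20, -0.19 ± 0.20 and -0.26 ± 0.20 for OVA against saline.

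Other genes of the translation machinery were called in the comparisons of OVA with saline and in none of exhaust with air. The counts below stand beside 14.8%, 12.5% and 18.1% of all probe sets called in air, at DE 500 and at DE 2000. The 74 mitochondrial ribosomal protein genes, which build the separate ribosome of that organelle, had 3 rises and 1 fall in air, 3 and 4 at DE 500, and 4 and 1 at DE 2000, with medians of -0.07, 0.01 and 0.03. Mrpl42 rose by 0.71 ± 0.17 in air and 0.67 ± 0.17 at DE 2000, and Mrps15 fell in all 3 comparisons (-0.77 ± 0.20, -0.73 ± 0.20 and -0.69 ± 0.20). With the 3'/5' ratio in the fit both kept their calls at DE 2000 (adjusted p = 0.0105 and 0.0487) and lost them elsewhere (0.108 for Mrpl42 in air, 0.186 and 0.534 for Mrps15 in air and at DE 500). Their median for DE 2000 against air in OVA was 0.12 as deposited and 0.18 after quantile normalization, with 58 and 63 of 74 above 0. For the cytosolic members the same medians were 0.24 and 0.06, and for the 8 tested lung markers 0.19 and -0.03. Among the latter, Sftpc, Sftpa1 and Scgb1a1 gave 0.36, 0.29 and 0.33 as deposited and -0.01, -0.02 and 0.02 after quantile normalization.

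Of 31 initiation factors, 2 rose and 5 fell in air, 1 rose and 1 fell at DE 500, and 2 rose and 1 fell at DE 2000. Eif3h, a subunit of the complex that holds the small subunit, rose by 0.45 ± 0.11, 0.36 ± 0.11 and 0.72 ± 0.11 (adjusted p = 0.0129, 0.0375 and 0.000123). Eif3b fell by 0.73 ± 0.15 in air, and Eif4ebp2, which blocks the cap-binding factor, fell by 0.68 ± 0.15 at DE 2000. Among 15 elongation factors and other TOP genes, 1, 2 and 2 rose and 0, 0 and 1 fell, with Gspt1, a release factor, rising by 0.79 ± 0.26, 0.89 ± 0.26 and 0.87 ± 0.26. Hnrnpa1 was the fall, -0.81 ± 0.21 at DE 2000. With the 3'/5' ratio in the fit, Eif3h and Gspt1 were called at DE 2000 (adjusted p = 0.000131 and 0.0212) but not in air (0.107 and 0.465) or at DE 500 (0.497 and 0.752). In that fit Eif3b in air lay just under the threshold (0.0499), and Eif4ebp2 and Hnrnpa1 were called at DE 2000 (0.000553 and 0.028).

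Of 42 tested ribosome biogenesis factors, 3, 2 and 5 fell and 0, 0 and 1 rose in the same order, with medians of -0.07, -0.13 and -0.11. Ddx10, a helicase of small subunit assembly, fell by 1.27 ± 0.16 at DE 2000 (adjusted p = 2.53e-05) and fell by 0.61 ± 0.16 at DE 500. Riok1, a kinase of late small subunit maturation, fell in air (-0.59 ± 0.20) and at DE 2000 (-0.73 ± 0.20), and Emg1, a methyltransferase for ribosomal RNA, fell by 0.54 ± 0.14 in air. Of 11 genes of RNA polymerase I, which makes ribosomal RNA, 2, 1 and 2 fell and 0 rose. Ubtf, its activator, fell in air (-0.46 ± 0.14) and at DE 500 (-0.43 ± 0.14), and Ttf1, its terminator, fell by 0.83 ± 0.21 at DE 2000. With the 3'/5' covariate Ddx10, Riok1 and Ttf1 were still called at DE 2000 (adjusted p = 3.96e-05, 0.0284 and 0.0163), and the calls in air and at DE 500 named here were lost. These were Ubtf in air and at DE 500 (adjusted p = 0.345 and 0.776), Riok1 and Emg1 in air (0.252 and 0.0994) and Ddx10 at DE 500 (0.211).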

How the data were processed

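Lung RNA of 24 samples was read on Affymetrix arrays, and the authors deposited 1 linear intensity per probe set and array, computed with MAS5 per the submitters' processing notes (version not given in the sources used here). Of 22690 probe sets, 64 controls were set aside. Annotation named 1 gene for 20380, several for 691 and none for 1555. Intensities were taken to log2 without a pseudocount. Probe sets with a mean above the 40th percentile (log2 7.11, signal 138) were tested, 13575 in all. A linear model of all 24 arrays, holding a mean for each group, was fitted in R 4.3.3 by limma 3.58.1, with contrasts and a trended eBayes step. Tests are two-sided. In each of 9 comparisons p was adjusted by Benjamini-Hochberg across all probe sets tested, with a threshold of 0.05. Values after ± are standard errors unless called SD. The fit was checked on simulated data. Members and gene lists were chosen with earlier results of these data known. Named are, per comparison, up to 3 largest rises and falls and 4 calls, the stalk genes, Rpsa, the paralogs, the 3 brightest and dimmest members, members with disagreeing probe sets, and up to 3 genes per further list. Rpl35 and Rplp2 starts and other values named beside the rule were chosen after they were seen. Replicate numbers were checked for pairing over 60 pairs of groups and numbers: residuals correlated at 0.03 on average, from -0.43 to 0.59, with 21 over 0.1, and were not used as pairs. Tables and figures were made with pandas 2.3.3 and matplotlib 3.10.9 under Python 3.11.15.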

Additional observations from a re-analysis of the deposited data

Results flagged for a closer look

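A screen covered 36 groups of 4 member values, which are not all the groups of the 45 members. In it a pair of values stood apart, each by a gap to the nearest array above Dixon's critical value for the group's range. Chance alone gives such a value in about 1 of 20 groups, and 2 were found in 36. Rpl12 in air plus saline replicate 3 was 6.91, with the others between 7.10 and 7.13. Rpl7a in DE 2000 plus saline replicate 4 was 13.46, with the others between 13.41 and 13.42. Both gaps are small on the log2 scale. Wider gaps occurred outside the screen. In DE 500 plus OVA, Rps4l was 6.52 in replicate 4, with the others between 8.54 and 8.67.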

How the results depend on the processing

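Of the values that answer a comparison, 592 alternatives stayed close to the reported value and 65 moved; none changed sign on a called value. For the median of DE 2000 against air in OVA, 0.24 became 0.06 with quantile normalization and 0.04 with quantile normalization and the 3'/5' covariate. The count of calls became 12 with the B1 covariate, against 7.17% of all probe sets. For OVA in air, the median of -0.22 became -0.03 (quantile), -0.34 (median scaling), -0.02 (3'/5' covariate), -0.02 (quantile and 3'/5') and 0.01 (B1). The count of 1 became 3 (quantile), 0 (no filter), 2 (60th percentile filter), 11 (only the compared groups), 7 (array weights) and 0 (3'/5', quantile with 3'/5', B1), and ran from 0 to 2 over the fits that left out 1 array. For OVA at DE 500, the median of -0.20 became 0.09 (3'/5') and 0.10 (B1), and the count of 1 became 8 (quantile), 2 (median scaling), 9 (array weights) and 0 (no filter, only the compared groups, 3'/5', quantile with 3'/5', B1). It ran from 0 to 12 over the fits without 1 array, with 11 and 12 falls without DE 500 plus saline replicate 2 or 3 and 0 without replicate 1 or 4. For OVA at DE 2000, the median of -0.03 became 0.31 with B1, and the count of 3 became 7 (quantile), 1 (median scaling), 1 (only the compared groups), 8 (array weights), 6 (quantile with 3'/5') and 6 (B1). Of all 13575 probe sets, that comparison called 2454 as reported, 2650 (quantile), 2119 (quantile with 3'/5') and 1258 (B1). The quantile fit called 16.8% of all probe sets in air and 14.3% at DE 500. For array weights, median scaling, other filters, only the compared groups and fits without 1 array, that share is not given here. Counts from those settings cannot be read as particular to these genes. For the interaction at DE 2000, the median of 0.19 became 0.04 (quantile), 0.32 (median scaling) and 0.03 (quantile with 3'/5'). The cause was not tested. Median scaling also moved the median of all probe sets, to -0.13 for OVA in air and 0.10 for that interaction. With the replicate number as a block the counts of calls were 0 for the exhaust comparisons and interactions and 1, 1 and 3 for OVA in air, at DE 500 and at DE 2000, as without it, although Rpsa in air then had an adjusted p of 0.0555. The B1 fit and quantile normalization with the 3'/5' covariate were chosen after seeing the data.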
